A study of Rattus norvegicus with 6 samples.

Results

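The genes described here carry the symbols of enzyme families that add or remove methyl and acetyl groups on histone lysines. They were taken from the count table by symbol, and some of their products act on other targets or have little activity. Every row named Kdm, Kmt, Setd, Hdac or Kat followed by a number, with or without a trailing letter, was counted as a member, which gave 48 of 37209 rows. They comprised 17 lysine demethylase genes (Kdm), 4 lysine methyltransferase genes (Kmt), 8 SET domain genes (Setd), 12 histone deacetylase genes (Hdac) and 7 lysine acetyltransferase genes (Kat). The cells were wild-type primary BMSCs, mesenchymal stem cells from the bone marrow of the rat femur that can form bone, cartilage and fat, and their RNA was sequenced. The exposed cells received 3% cigarette smoke extract (CSE) for 6 h, and the control cells were kept for 6 h in serum-free medium, with 3 libraries per group. The medium used to dilute the extract is not stated, so whether the groups also differed in serum is not known. Nor is it stated that the 3 libraries per group are separate cultures or animals, and p-values therefore cover the spread between these libraries only, which may be technical.

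Histone lysine methylation is written from S-adenosylmethionine, mostly by SET domain enzymes. It is erased either by flavin-dependent amine oxidases of the KDM1 type or by JmjC dioxygenases, which need oxygen, iron and 2-oxoglutarate. Acetyl groups are added by acetyltransferases from acetyl-CoA and removed by zinc-dependent deacetylases or by the NAD-dependent sirtuins. Methylation of histone H3 at lysine 4 and lysine 36 is found on active genes, and methylation at lysine 9 and lysine 27 on silent ones, while acetylation marks active promoters and enhancers. In mesenchymal progenitors these enzymes act on the lineage choice between bone and fat, and Hdac4 restrains Runx2 and MEF2 factors during cartilage maturation in mice.

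Sequences around the start site are given for the members with the largest rises and falls that have an entry in the RefSeq promoter table of build GRCr8, which is not the build used for the counts. The rises are represented by Kdm3a and Hdac4 and the falls by Hdac7 and Hdac9, and 3 of these 4 genes belong to the same deacetylase class. Each run covers 250 bases before to 50 bases after the annotated start, 5′ to 3′ on the strand of the gene, and capitals mark matches to the motifs searched below. All 4 lie on the minus strand, Kdm3a at chr4:105233321-105233620, Hdac4 at chr9:100197588-100197887, Hdac7 at chr7:130840968-130841267 and Hdac9 at chr6:57052522-57052821.
Kdm3a: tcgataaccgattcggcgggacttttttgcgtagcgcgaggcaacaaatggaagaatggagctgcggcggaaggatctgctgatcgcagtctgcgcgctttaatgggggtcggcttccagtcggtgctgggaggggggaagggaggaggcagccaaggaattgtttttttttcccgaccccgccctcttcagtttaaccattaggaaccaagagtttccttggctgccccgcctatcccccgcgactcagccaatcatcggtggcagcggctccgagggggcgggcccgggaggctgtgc
Hdac4: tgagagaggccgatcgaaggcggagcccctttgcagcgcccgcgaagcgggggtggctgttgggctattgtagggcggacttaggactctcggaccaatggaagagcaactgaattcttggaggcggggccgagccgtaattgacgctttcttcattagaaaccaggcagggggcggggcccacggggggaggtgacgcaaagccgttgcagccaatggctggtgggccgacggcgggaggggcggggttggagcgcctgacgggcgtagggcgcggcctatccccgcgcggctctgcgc
Hdac7: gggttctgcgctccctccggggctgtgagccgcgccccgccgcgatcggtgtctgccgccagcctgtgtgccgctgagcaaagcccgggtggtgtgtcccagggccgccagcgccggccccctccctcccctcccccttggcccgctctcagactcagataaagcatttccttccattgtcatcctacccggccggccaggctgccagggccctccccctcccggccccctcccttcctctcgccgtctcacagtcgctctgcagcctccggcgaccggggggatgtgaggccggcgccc
Hdac9: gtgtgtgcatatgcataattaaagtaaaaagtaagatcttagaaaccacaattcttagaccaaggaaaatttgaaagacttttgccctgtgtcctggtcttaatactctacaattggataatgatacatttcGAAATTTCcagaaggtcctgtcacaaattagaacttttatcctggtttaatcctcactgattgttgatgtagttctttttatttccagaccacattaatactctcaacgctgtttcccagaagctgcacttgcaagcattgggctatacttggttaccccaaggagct
The Hdac9 stretch stands apart in composition, with 37.0% G and C and 2 CpG dinucleotides, against 67.0% and 30 for Hdac4, 72.7% and 26 for Hdac7, and 60.3% and 24 for Kdm3a. The gene may have further start sites that are not shown here.

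The libraries held between 15958621 and 22589327 counts, and values are normalized counts per 1000000 counts (CPM, TMM-scaled). A gene was called when edgeR's quasi-likelihood test gave an adjusted p under 0.05 over all 13390 genes tested. Log2 fold changes are CSE over control ± SE. All 14 mesenchymal stromal markers were detected, with a summed level of 46882 to 48655 CPM in CSE libraries and 48303 to 51051 CPM in control libraries. This sum came mostly from Col1a1 and Col3a1. Of the 14 markers 4 were called higher and 6 lower (log2 fold changes from −2.17 for Cxcl12 to 2.51 for Vcam1). The Vcam1 value rests on 5, 9 and 4 counts in the control libraries. Macrophage markers were present as well, 14 of 15 of them tested, at a summed 456 to 482 CPM with CSE and 527 to 539 CPM in the control. The sum of 8 endothelial markers was 7.45 to 9.41 CPM with CSE and 12.1 to 13.1 CPM in the control, with Emcn at 0. The sum of 6 adipocyte markers was 100.2 to 109 CPM with CSE and 179 to 198 CPM in the control. None of 17 lymphoid, erythroid and neutrophil markers had enough counts to be tested. The summed macrophage, endothelial and adipocyte markers were thus lower in every CSE library than in any control library. The endothelial sum came mostly from Tek and Tie1, and the adipocyte sum mostly from Fabp4 and Lpl. Pecam1, Cdh5, Kdr, Adipoq, Plin1 and Cidec had too few counts to be tested. These sums therefore do not show that endothelial cells or adipocytes were present. Gene by gene the macrophage list was mixed, with 4 lower, 2 higher and 8 not past the test, while 2 of 3 tested endothelial and 3 of 3 tested adipocyte markers were lower. Of 3 tested osteoclast markers 2 were higher, and their sum was 161 to 172 CPM with CSE and 163 to 172 CPM in the control, with Dcstamp at 0. The part of these cells in the results below was not tested. In bulk RNA, fewer cells of a type and less RNA per cell cannot be told apart.

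Most members differed between CSE and control cells. With TMM scaling, Kdm, Kmt, Setd and MYST-type acetyltransferase genes were mostly higher with CSE, whereas most deacetylase genes were lower. Differences between the classes were not tested. Of the 48 members, 42 passed the filter on low counts, 28 were higher with CSE, 9 were lower and 5 did not pass the test. That is 88.1% called, against 73.9% of all genes tested, and 66.7% higher and 21.4% lower, against 36.3% and 37.5% of all genes. The median log2 fold change was 0.24 over the tested members and −0.02 over all genes tested. Among the 38 tested members with a mean of 10 CPM or more, 28 (73.7%) were higher and 6 (15.8%) lower, against 44.6% and 36.2% of the 8563 genes at that level. Every CSE library lay above every control library in 27 members, against 37.2% of all genes, and below in 9, against 38.6%. Most rises were small: 17 of the 28 were under 1.5-fold, and 10 of those under 1.25-fold. Changes of 2-fold or more were seen in 4 members upward and 6 downward, together 10 of 42, while 25.2% of all genes changed as much.

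The small rises depended on the scaling of library sizes. Under total counts alone 18 members were higher and 11 lower, where 28.0% of all genes were higher and 47.2% lower. Under upper-quartile scaling 18 were again higher and 11 lower, where 30.2% of all genes were higher and 44.7% lower. Of the called members, 62.1% were then higher in both cases, against 75.7% with TMM, and over all genes the same share was 37.2% under total counts alone and 40.3% under upper-quartile scaling, against 49.2%. The median over all genes moved to −0.21 under total counts alone and −0.15 under upper-quartile scaling. The median of the members stood 0.25 above it under each of the 3 scalings. A change of scaling shifts the log2 fold changes of all genes by about the same amount, so this constant gap is no separate check. RLE size factors, close to TMM, gave 29 higher and 9 lower, and the other scalings named below are upper-quartile and total counts. In all alternatives tried, 18 of the 28 higher calls and all 9 lower calls were kept.

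**Figure D1:**
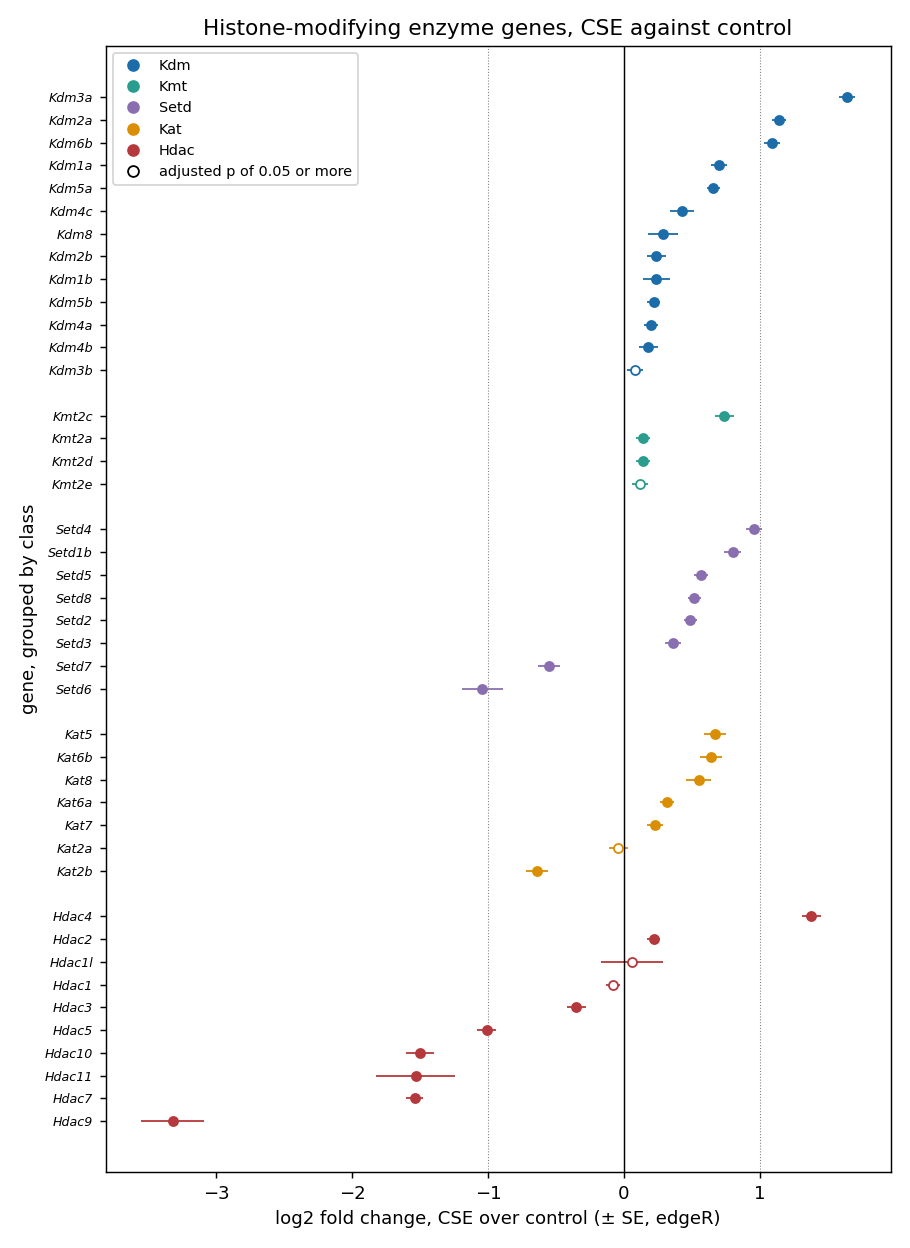
Log2 fold change of CSE over control (x axis, ± SE, edgeR) for the 42 tested members, grouped by class down the page and sorted within each class. Open circles did not pass the test and dotted lines mark 2-fold changes. All 13 Kdm points lie right of 0, between 0.08 and 1.64, whereas the 10 Hdac points run from 1.38 for Hdac4 to −3.32 for Hdac9.

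Most tested demethylase genes were higher with TMM scaling, and fewer with the other scalings. Of 17 Kdm members, 13 were tested, 12 were higher, none was lower and Kdm3b did not pass. The class median of the log2 fold change was 0.29, and the 92.3% higher stands against 36.3% of all genes. Under upper-quartile scaling and under total counts alone 6 were higher, where 30.2% and 28.0% of all genes were. In both cases Kdm3a, Kdm2a, Kdm6b, Kdm1a, Kdm5a and Kdm4c were called and the other 7 were not. Kdm4b was also not called with DESeq2 or without any one of CSE replicate 1, CSE replicate 2, control replicate 2 and control replicate 3 (edgeR adjusted p = 0.055 to 0.22). Kdm1b was called in 4 of its 14 alternatives, and of the fits that left out 1 library only the one without control replicate 1 kept its call (0.057 to 0.26 in the others).

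Kdm3a, which removes mono- and dimethyl groups from lysine 9 of histone H3 and is a known hypoxia-responsive gene, rose most. It had 102, 104 and 113 CPM in the CSE libraries, against 36.2, 34.6 and 31.8 CPM in the control libraries. Every CSE library lay far above every control library, and the fold change was 3.11 (log2 1.64 ± 0.06, edgeR adjusted p = 2.1e-13). Its paralog Kdm3b had 76.3, 77.7 and 71.3 CPM with CSE, against 72.7, 73.0 and 67.7 CPM in the control, and these ranges overlap (0.08 ± 0.06, edgeR adjusted p = 0.22). Read as a ratio within each library, which no scaling can alter, Kdm3a had 1.34, 1.34 and 1.58 counts per Kdm3b count with CSE, against 0.497, 0.474 and 0.471 in the control. That pair was chosen after its values were seen, so no test is given.

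Kdm2a encodes a JmjC demethylase of lysine 36 that is recruited to unmethylated CpG islands. Its level was 244, 244 and 253 CPM with CSE, against 109, 112 and 114 CPM in the control. It was thus 2.21-fold higher, with groups far apart (1.14 ± 0.05, edgeR adjusted p = 4.6e-13). Kdm2b, a partner of the variant Polycomb complex PRC1.1, was 1.18-fold higher (0.24 ± 0.07, edgeR adjusted p = 0.0029), a call that ended under both other scalings.

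Kdm6b encodes JMJD3, a demethylase of lysine 27 that opposes Polycomb silencing and is induced by many stimuli. It had 61.7, 58.1 and 58.4 CPM with CSE, against 29.3, 27.2 and 27.4 CPM in the control. The groups were far apart, with a 2.13-fold difference (1.09 ± 0.06, edgeR adjusted p = 4.2e-11). The other KDM6 gene, Kdm6a, is X-linked and was listed at 0.

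Of the flavin-dependent enzymes, Kdm1a, which encodes LSD1 of the CoREST complex, had 93.7, 94.7 and 94.9 CPM with CSE, against 55.5, 54.8 and 63.5 CPM in the control. The CSE libraries were close to each other and above all controls (0.70 ± 0.06, edgeR adjusted p = 9.7e-09). Kdm1b had 14.1, 14.2 and 15.0 CPM with CSE, against 13.4, 12.7 and 10.7 CPM in the control, so that the groups nearly touched (0.24 ± 0.10, edgeR adjusted p = 0.045).

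In the KDM5 group, which removes methyl groups from lysine 4, Kdm5a had 169, 183 and 191 CPM with CSE, against 112, 118 and 112 CPM in the control. It was 1.58-fold higher without overlap (0.66 ± 0.05, edgeR adjusted p = 4.8e-09), and Kdm5b was 1.16-fold higher (0.22 ± 0.05). In the KDM4 group, which acts on lysine 9 and lysine 36, Kdm4c had 19.4, 21.0 and 21.6 CPM with CSE, against 16.9, 14.9 and 14.2 CPM in the control. This was the group's clearest rise (0.43 ± 0.09, edgeR adjusted p = 3.4e-04), beside 0.20 ± 0.05 for Kdm4a and 0.18 ± 0.07 for Kdm4b. Kdm8, which encodes the JmjC protein JMJD5, had 16.8, 15.4 and 13.1 CPM with CSE, against 11.5, 13.6 and 11.8 CPM in the control. Its ranges overlap, although the test passed (0.29 ± 0.11, edgeR adjusted p = 0.024), and its call ended without any one of CSE replicate 1, CSE replicate 2, control replicate 1 or control replicate 3 (edgeR adjusted p = 0.054 to 0.12).

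**Figure D2:**
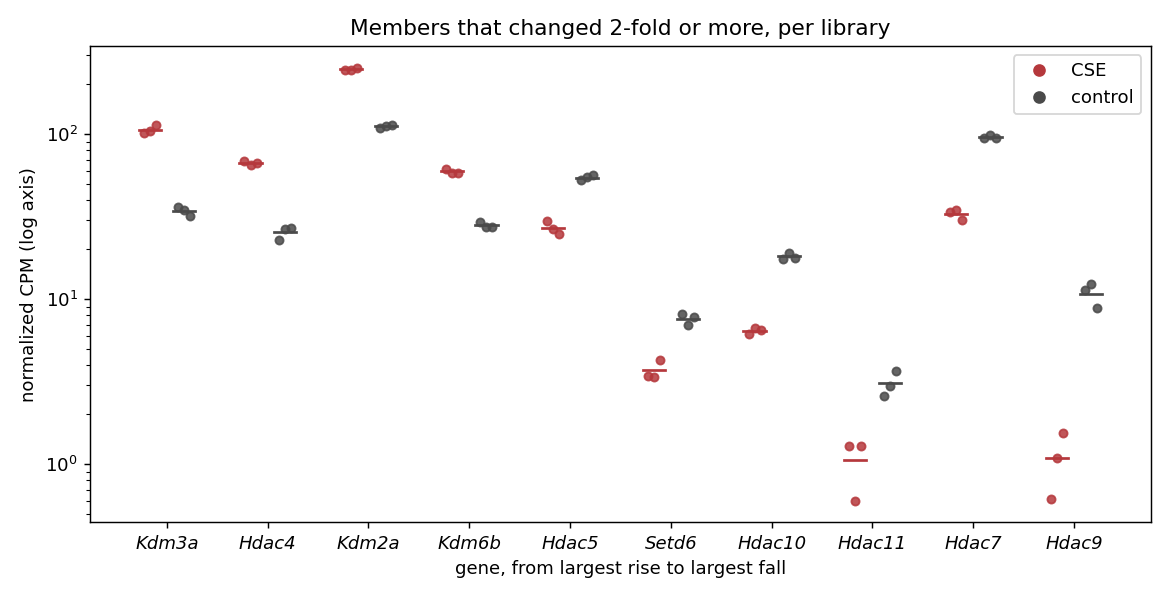
Normalized CPM (log axis) of the 10 members that changed 2-fold or more, with 1 point per library, CSE left of control, and horizontal bars at the group means. The groups do not overlap for any of these genes, which were picked by their change, and 75.8% of all genes tested show no overlap. Hdac9 and Hdac11 lie between 0.600 and 1.55 CPM in the CSE libraries.

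All 4 Kmt members, methyltransferase genes, were tested, 3 were higher, none was lower and Kmt2e did not pass, with a median of 0.14. These are KMT2 genes, and Kmt2a, Kmt2c and Kmt2d encode the large catalytic subunits of COMPASS-like complexes that methylate lysine 4 at promoters and enhancers. Kmt2c, an enhancer methyltransferase, had 74.0, 91.7 and 92.7 CPM with CSE, against 50.5, 53.1 and 50.8 CPM in the control. It was 1.67-fold higher, with CSE replicate 1 below the other CSE libraries yet above all controls (0.74 ± 0.07, edgeR adjusted p = 8.7e-08). Its partner paralog Kmt2d was at 0.14 ± 0.05 and Kmt2a at 0.14 ± 0.05. With the other 2 scalings Kmt2c was the only one still called. With TMM 75% of the class was higher, against 36.3% of all genes, and 75% was called, against 73.9%. With total counts 1 of 4 was higher, against 28.0% of all genes. Under total counts alone the class median was −0.05, and Kmt2a and Kmt2d changed sign. The call of Kmt2a ended without CSE replicate 2, control replicate 2 or control replicate 3 (edgeR adjusted p = 0.051 to 0.093), and that of Kmt2d without control replicate 1 (0.071). Kmt2e was called without CSE replicate 1 (0.012) or control replicate 1 (0.034), and also with RLE size factors (0.14, edgeR adjusted p = 0.038).

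Among the 8 Setd members, all tested, 6 were higher and 2 lower, with a median of 0.50, and these 8 calls held under every alternative tried. That is 75% higher and 25% lower, against 36.3% and 37.5% of all genes. Setd1b, the catalytic subunit gene of a COMPASS complex that trimethylates lysine 4, had 101, 103 and 102 CPM with CSE, against 57.5, 64.5 and 54.7 CPM in the control. The CSE libraries were nearly identical and 1.74-fold above the controls (0.80 ± 0.06, edgeR adjusted p = 2.0e-09). Setd4 had 55.6, 57.2 and 52.8 CPM with CSE, against 28.4, 28.4 and 28.3 CPM in the control. It had the largest rise of the class, 1.95-fold (0.96 ± 0.06, edgeR adjusted p = 2.0e-10). Setd2, which trimethylates lysine 36, averaged 177 ± 2.85 CPM with CSE and 126 ± 3.30 CPM in the control (SD, n = 3 each), a log2 fold change of 0.49 ± 0.05. Setd8, also known as Kmt5a, which monomethylates lysine 20 of histone H4, averaged 177 ± 4.01 CPM with CSE and 124 ± 5.16 CPM in the control (SD, n = 3 each), a log2 fold change of 0.52 ± 0.05. Setd5 stood at 0.57 ± 0.05, and Setd3, whose product methylates a histidine of actin, at 0.36 ± 0.06.

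The 2 falls in this class were those of Setd6 and Setd7. Setd6, which methylates the NF-kB subunit RelA, had 3.42, 3.38 and 4.29 CPM with CSE, against 8.07, 6.96 and 7.82 CPM in the control. It was 2.06-fold lower (−1.04 ± 0.15, edgeR adjusted p = 8.2e-06). Setd7, a monomethyltransferase of histone H3 and of several transcription factors, averaged 25.2 ± 2.07 CPM with CSE and 36.9 ± 3.54 CPM in the control (SD, n = 3 each), a log2 fold change of −0.55 ± 0.08. Neither gene's groups overlapped, which held for 75.8% of all genes tested.

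Acetyltransferase genes divided by family. All 5 MYST genes were higher and neither GNAT gene was, so that of 7 Kat members 5 were higher, 1 was lower and Kat2a did not pass, with a median of 0.32. That is 71.4% higher and 14.3% lower, against 36.3% and 37.5% of all genes. Kat5, which encodes TIP60, the acetyltransferase of the NuA4 complex that also acts in DNA repair, had 46.9, 41.2 and 43.4 CPM with CSE, against 30.1, 24.6 and 27.9 CPM in the control. It was 1.60-fold higher without overlap (0.67 ± 0.08, edgeR adjusted p = 4.6e-07). Kat6b was at 0.64 ± 0.08, Kat8, the H4 lysine 16 acetyltransferase gene, at 0.55 ± 0.09, Kat6a at 0.32 ± 0.05 and Kat7 at 0.23 ± 0.06, and of these Kat7 was not called under upper-quartile scaling or total counts alone.

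The GNAT genes encode the alternative catalytic subunits of the SAGA and ATAC complexes. Kat2b, which encodes PCAF, had 18.7, 22.4 and 22.1 CPM with CSE, against 35.1, 32.3 and 30.8 CPM in the control. It was 1.55-fold lower, with every CSE library below every control (−0.64 ± 0.08, edgeR adjusted p = 1.8e-06). Its paralog Kat2a, which encodes GCN5, had 36.2, 30.2 and 32.5 CPM with CSE, against 32.8, 35.9 and 33.1 CPM in the control, and the groups overlap (−0.04 ± 0.07, edgeR adjusted p = 0.64). Kat2a was called lower under total counts alone (−0.23) and upper-quartile scaling (−0.18).

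Deacetylase genes were lower on balance, and they held both the largest fall and the second largest rise among the members. Of 12 Hdac members 10 were tested, 6 were lower, 2 were higher and Hdac1 and Hdac1l did not pass, with a median of −0.68. Of the 6 falls, 5 were of 2-fold or more. The 60% lower stands against 37.5% of all genes, and the 20% higher against 36.3%.

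Class IIa deacetylases have little deacetylase activity of their own. They shuttle between cytoplasm and nucleus under the control of kinases such as SIK and PKD, and in the nucleus they repress MEF2 factors. This class split, with Hdac4 higher and Hdac5, Hdac7 and Hdac9 lower. Hdac4 had 68.2, 65.0 and 66.9 CPM with CSE, against 22.8, 26.6 and 27.1 CPM in the control. It was 2.61-fold higher, with a wide gap between the groups (1.38 ± 0.07, edgeR adjusted p = 6.6e-12). Hdac7 had 33.7, 34.8 and 30.1 CPM with CSE, against 94.7, 98.5 and 94.2 CPM in the control. This 2.92-fold fall had the smallest adjusted p of the class (−1.54 ± 0.06, edgeR adjusted p = 3.8e-13). Hdac5 had 29.6, 26.4 and 24.8 CPM with CSE, against 52.7, 54.7 and 56.2 CPM in the control, so that it was 2.02-fold lower (−1.01 ± 0.07, edgeR adjusted p = 5.9e-10).

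Hdac9, whose short isoform MITR lacks the catalytic domain, fell most of all members. It had 0.617, 1.09 and 1.55 CPM with CSE, against 11.3, 12.3 and 8.88 CPM in the control. The CSE values rest on 13, 20 and 30 counts, and the control values on 192, 234 and 176. Every CSE library was far below every control, a 10.0-fold fall (−3.32 ± 0.23, edgeR adjusted p = 5.6e-10). Counting was per symbol, so its isoforms cannot be told apart here.

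The split of the class can be restated as ratios within each library, where scaling plays no part. They come from the same counts as the fold changes above and add no separate support. Hdac4 had 2.02, 1.87 and 2.22 counts per Hdac7 count with CSE, against 0.241, 0.270 and 0.288 in the control. Per Hdac5 count it had 2.30, 2.46 and 2.70 counts with CSE, against 0.432, 0.486 and 0.483 in the control. Hdac4 thus had fewer counts than either paralog in each control library and more in each CSE library. Counts were not divided by transcript length, so these ratios compare libraries and not the levels of the genes. The pairs were chosen after their values were seen and no test is given.

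Class I deacetylases, the catalytic subunits of the SIN3, NuRD, CoREST and NCOR complexes, changed little. Hdac3, which works with the corepressor NCOR1, had 25.0, 28.0 and 24.3 CPM with CSE, against 32.7, 32.2 and 33.5 CPM in the control. It was 1.27-fold lower without overlap (−0.35 ± 0.07, edgeR adjusted p = 2.7e-04). Hdac2 had 143, 145 and 139 CPM with CSE, against 119, 128 and 122 CPM in the control (0.22 ± 0.05, edgeR adjusted p = 6.7e-04), a call that ended under total counts alone (0.03) and upper-quartile scaling (0.08). Hdac1 had 137, 131 and 129 CPM with CSE, against 147, 135 and 137 CPM in the control, with overlap (−0.08 ± 0.05, edgeR adjusted p = 0.19), and it was called lower under those 2 scalings (−0.26 and −0.21). Hdac1l, a copy of Hdac1 whose reads the counting may have split or dropped, had 3.70, 3.38 and 2.74 CPM with CSE, against 2.06, 3.95 and 3.33 CPM in the control. Its level is uncertain for that reason, and it did not pass (0.06 ± 0.23, edgeR adjusted p = 0.81).

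The remaining deacetylases fell. Hdac10, a class IIb enzyme that removes acetyl groups from polyamines, had 6.17, 6.65 and 6.51 CPM with CSE, against 17.6, 19.1 and 17.8 CPM in the control. It was 2.82-fold lower with little spread in either group (−1.50 ± 0.10, edgeR adjusted p = 5.0e-10). Hdac11, the class IV enzyme, which removes long-chain fatty acyl groups, had 1.28, 0.600 and 1.29 CPM with CSE, against 2.59, 2.95 and 3.68 CPM in the control. It was 2.88-fold lower at a low level (−1.53 ± 0.29, edgeR adjusted p = 1.2e-04).

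**Figure D3:**
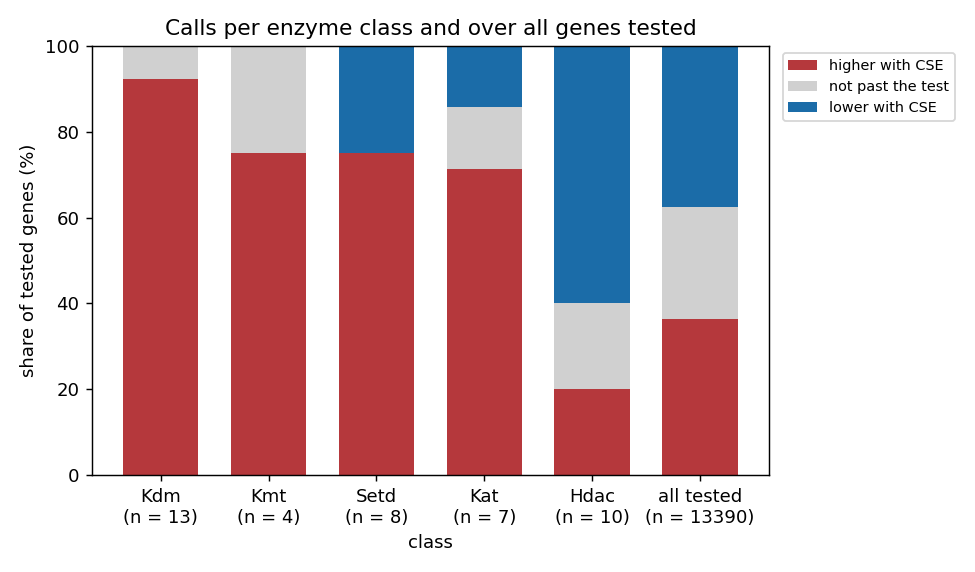
Share of tested genes (%) that were higher with CSE, not past the test, or lower with CSE, per enzyme class and over all 13390 genes tested. The higher share is 92.3% of 13 Kdm genes and 20% of 10 Hdac genes, against 36.3% of all genes.

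Of the members, 6 were listed at 0 in all libraries. Hdac6, Hdac8, Kdm5c and Kdm6a are X-linked, and 563 of the 574 protein-coding genes with a name that RefSeq places on chromosome X were listed at 0, so nothing is read from these zeros. Kdm5d is Y-linked. Kdm4d is autosomal, and its 0 counts allow up to 0.142 to 0.177 CPM per library (3 counts). Among genes of the same families that the table lists under other row names, Suv420h2, the gene of KMT5C, which di- and trimethylates lysine 20 of H4, was 2.77-fold lower (−1.47 ± 0.11, edgeR adjusted p = 1.7e-09). Its paralog Suv420h1 (KMT5B) was higher (0.26 ± 0.06), as were Csrp2bp (KAT14, a subunit of ATAC, 0.44 ± 0.07) and the row for Kmt2b (0.28 ± 0.06). The call of Suv420h1 ended under both other scalings (0.13 and 0.08), and that of the Kmt2b row under total counts alone (0.09).

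**Figure D4:**
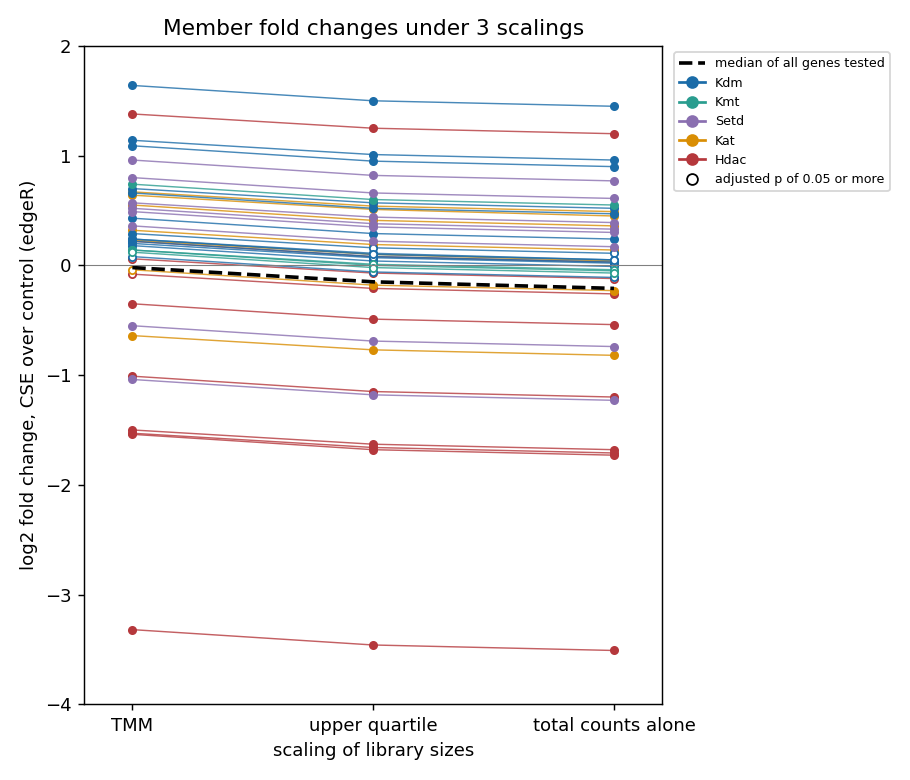
Log2 fold change of CSE over control (edgeR) for each of the 42 tested members under TMM, upper-quartile and total-count scaling, with 1 line per gene, coloured by class, and open circles where the adjusted p was 0.05 or more. The lines run in parallel with the median of all genes (dashed), which moves from −0.02 to −0.21, and the members between about 0 and 0.3 lose their calls.

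Set out by histone mark, with groups chosen after the values were seen, erasers and COMPASS-type writers of lysine 4 methylation were both higher. All 5 of these writers rose (Kmt2a, Kmt2c, Kmt2d, Setd1b and the Kmt2b row, median 0.28) and so did all 4 tested erasers (Kdm1a, Kdm1b, Kdm5a and Kdm5b, median 0.45). Setd7, a histone H3 monomethyltransferase gene that was not placed in these groups, was lower (−0.55 ± 0.08). Partner genes of the COMPASS-type writers were mixed, and are named here outside the 4 genes taken per list. Ash2l (−0.45 ± 0.06) and Dpy30 (−0.43 ± 0.08) were lower, Wdr5 was higher (0.22 ± 0.07) and Rbbp5 did not pass. The call of Wdr5 ended under both other scalings. For lysine 27, the tested eraser Kdm6b was higher and both writers were lower. Ezh2, the Polycomb methyltransferase of dividing cells, averaged 34.7 ± 2.37 CPM with CSE and 51.1 ± 2.50 CPM in the control (SD, n = 3 each), a log2 fold change of −0.56 ± 0.07, and Ezh1 was at −0.21 ± 0.07. Kdm6b had 1.93, 1.63 and 1.60 counts per Ezh2 count with CSE, against 0.548, 0.529 and 0.567 in the control. Partner genes of Ezh2 and Ezh1 in PRC2 went both ways, some named here outside the 4 genes taken per list. Suz12 (0.36 ± 0.06), Eed (0.17 ± 0.06) and Rbbp4 (0.67 ± 0.08) were higher, as was Phf1. Jarid2, Phf19 and the row for Epop (−0.62 ± 0.19) were lower. The call of Eed ended under both other scalings. For lysine 9, 4 of 5 tested erasers rose, whereas of 4 tested writers Ehmt1 rose, Ehmt2 fell and Suv39h2 and Setdb1 did not pass. These are partial lists. Prdm2 (1.38 ± 0.05) and Prdm16 (−0.88 ± 0.08), from the wider methyltransferase list below, and the demethylase relative Phf2 (0.22 ± 0.06) were not placed in them. For lysine 36, 4 of 5 writers and all 5 erasers rose, and Nsd1 was the writer that fell (−0.47 ± 0.05). The KDM4 genes count under both lysine 9 and lysine 36. Many of these rises were small. With total-count scaling 2 of 5 writers and 2 of 4 erasers of lysine 4 were higher. So were 3 of 5 writers and 2 of 5 erasers of lysine 36, and 2 of 5 erasers of lysine 9. Setdb1 fell beside Ehmt2, whereas the calls of Kdm6b, Ezh2 and Ezh1 were kept. Over all genes tested 36.3% were higher with TMM and 28.0% with total counts alone.

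The wider set of chromatin genes moved in both directions, and counts in these lists shift with scaling as the members' do. Over all genes tested 36.3% were higher and 37.5% lower, and with total counts 28.0% and 47.2%. Of 18 tested lysine methyltransferases with other symbols, 7 rose, 8 fell and 3 did not pass (median −0.05), and with total counts 6 rose and 10 fell. Dot1l, the only known methyltransferase of H3 lysine 79, averaged 232 ± 20.2 CPM with CSE and 45.1 ± 2.25 CPM in the control (SD, n = 3 each), 5.15-fold higher (2.36 ± 0.07, edgeR adjusted p = 2.6e-15), a larger rise than that of any member. Prdm2 rose as well (1.38 ± 0.05), as did Whsc1, the NSD2 gene (0.68 ± 0.05), while Ehmt2, which encodes G9a, a lysine 9 dimethyltransferase, fell (−0.84 ± 0.06). Of 10 tested demethylase relatives, 6 rose and 2 fell (median 0.39), with Jmjd6, a JmjC hydroxylase gene, at 1.53 ± 0.07, Jmjd1c at 0.94 ± 0.07, the row for Riox1 at 0.93 ± 0.09 and Jarid2, a PRC2 partner without catalytic activity, at −1.0 ± 0.10. COMPASS and PRC2 partners had 9 of 19 higher and 6 lower (median 0.17), though 5 were higher and 8 lower with total counts (median −0.02) and 7 each way under upper-quartile scaling, among them Phf1 (1.31 ± 0.08) and Wdr82 (0.53 ± 0.05) upward and Phf19 (−1.06 ± 0.13) downward.

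The balance of acetylation genes outside the symbol rule depended on scaling. Of 12 tested acetyltransferases, 7 rose and 4 fell (median 0.26), and under total counts alone 5 rose and 5 fell. Crebbp, the gene of the coactivator CBP, averaged 78.4 ± 5.83 CPM with CSE and 36.3 ± 1.9 CPM in the control (SD, n = 3 each), 2.16-fold higher (1.11 ± 0.07, edgeR adjusted p = 8.1e-11). Its paralog Ep300, which is outside the 4 genes taken per list and was named after its value was seen, was at 0.62 ± 0.06. Naa60 fell (−1.25 ± 0.07), as did the row for Elp3 (−1.23 ± 0.06, edgeR adjusted p = 3.6e-12), which had the smallest adjusted p of this list. Of 37 acetyltransferase complex partners, 20 rose and 11 fell (median 0.18), against 15 and 13 with total counts (median −0.01). The MYST partner genes Brd1 (1.30 ± 0.05) and Epc1 (1.54 ± 0.06, of NuA4) and the SAGA gene Supt3h (1.94 ± 0.11) rose, and Jade1, a scaffold gene of the KAT7 complex, fell (−1.53 ± 0.06). Readers of acetyl-lysine and related domains had 10 of 20 higher and 6 lower (median 0.11; 6 and 8 with total counts), with Baz1a at 1.24 ± 0.07, Trim24 at 1.25 ± 0.13, Bptf at 0.64 ± 0.05 and Zmynd8 at −0.87 ± 0.06.

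Sirtuin genes, the other deacetylase family, went up in 5 of 7 cases and down in 1 (median 0.37), and in 4 and 1 with total counts. Sirt1, the nuclear NAD-dependent deacetylase gene, averaged 64.3 ± 5.58 CPM with CSE and 20.6 ± 1.45 CPM in the control (SD, n = 3 each), 3.12-fold higher (1.64 ± 0.08, edgeR adjusted p = 3.2e-12). Sirt4 was at 1.66 ± 0.19, Sirt5 at 0.43 ± 0.07 and Sirt2 at −0.38 ± 0.06. Whether sirtuins and HDAC genes differ as groups was not tested. Partners of the HDAC complexes had 13 of 31 higher and 12 lower (median 0.08), and 9 higher and 13 lower with total counts (median −0.11). The NuRD remodeller genes Chd4 (−0.86 ± 0.04) and Chd3 (−0.63 ± 0.04) and the NCOR subunit gene Tbl1xr1 (−0.92 ± 0.07) fell, and Elmsan1, a scaffold gene of the mitotic deacetylase complex, rose (1.07 ± 0.06).

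Among 13 tested MEF2 factors and kinases or binders of class IIa deacetylases, 5 rose and 4 fell (median 0.07), and 5 rose and 6 fell with total counts. Mef2c, a MEF2 factor gene of muscle, bone and cartilage, averaged 13.0 ± 1.18 CPM with CSE and 68.5 ± 3.70 CPM in the control (SD, n = 3 each), 5.29-fold lower (−2.40 ± 0.08, edgeR adjusted p = 1.7e-14). Mef2a was higher (0.60 ± 0.07), as was the kinase gene Sik2 (0.66 ± 0.07), and Prkd3 was lower (−0.51 ± 0.05). Hdac4 and Mef2c therefore moved apart, with 5.87, 4.71 and 4.96 Hdac4 counts per Mef2c count with CSE, against 0.323, 0.376 and 0.423 in the control. This ratio restates the fold changes of both genes, and no test is given.

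Cofactor genes moved in both directions, with 8 of 17 higher and 5 lower (median 0.14), though 4 were higher and 7 lower with total counts. Nampt, the rate-limiting gene of NAD salvage, was 2.92-fold higher (1.55 ± 0.07), and Acly, a source of nuclear and cytosolic acetyl-CoA, was at 0.82 ± 0.05. Of the enzymes that make 2-oxoglutarate, cytosolic Idh1 rose (1.24 ± 0.05) and mitochondrial Idh2 fell (−1.67 ± 0.06). Arginine methyltransferase genes had 3 of 8 higher and 1 lower (median 0.06), which turned to 1 higher and 3 lower under both other scalings (medians −0.07 and −0.13), with Carm1 at −0.88 ± 0.06, Prmt2 at 0.69 ± 0.09, Prmt1 at 0.22 ± 0.06 and Prmt3 at 0.21 ± 0.07, and the calls of Prmt1 and Prmt3 ended under both other scalings. DNA methylation genes had 3 of 7 higher and 3 lower (median 0.13), with Mbd1 at 1.21 ± 0.06, Dnmt3a at 0.69 ± 0.07, Dnmt1 at −0.84 ± 0.06 and Uhrf1 at −0.61 ± 0.08. Of 7 tested genes of oxygen sensing, 3 rose and 2 fell (median 0.06; 2 and 3 with total counts), with Hif1a at 0.63 ± 0.05, Vhl at 0.53 ± 0.06, Epas1 at −0.98 ± 0.14 and Egln2 at −0.36 ± 0.08.

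The start-site stretches of 33 of the 42 tested members were in the RefSeq table. They were rich in G and C, with a median of 63.3% (37.0% to 88.7%) and 26 CpG dinucleotides, against 52.3% and 7 over 27457 stretches of the same length. Motifs were searched on both strands. The core motif of the aryl hydrocarbon receptor, GCGTG, was in 54.5% of the member stretches and 31.1% of all, in 14 of 24 stretches of higher members and in 4 of 7 of lower members. It holds a CpG itself, so its share moves with base composition. The antioxidant response element core TGACNNNGC was in 15.2% of member stretches and 12.2% of all, and the heat shock pair GAANNTTC in 12.1% and 8.34%. The AP-1 motif TGANTCA was in 3.03% and 7.33%, the E-box CACGTG in 12.1% and 6.65%, the cyclic AMP element TGACGTCA in 0 of 33 and 1.91%, and the loose ends of the serum response (CArG) motif in 87.9% and 71.9%. In the 4 stretches printed above, capitals leave out the CArG ends, and 1 match was found, a heat shock pair 118 bases before the Hdac9 start. These matches describe letters in a window and say nothing of binding.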

How the data were processed

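RNA-seq libraries of 3 CSE-treated and 3 control BMSC samples were used. The authors deposited raw read counts per gene symbol, whole numbers with no normalization, per the file headers and values. HISAT2 2.0.4 and build Rnor_6.0 are named, with no role, per the submitters' processing notes. No source used here gives the counting tool or strand setting, so overlapping and antisense genes, and near-identical copies, are uncertain. Columns were matched to samples by title.

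Of 21252 genes with a count, filterByExpr of edgeR 4.0.16 (R 4.3.3) kept 13390. Libraries were scaled with TMM (factors 0.932 to 1.07), and the groups were tested with edgeR's quasi-likelihood method (2-sided). P-values were adjusted after Benjamini and Hochberg over the 13390 genes, and 0.05 was the threshold. The SE is the log2 fold change divided by the square root of F. Members and lists were chosen with earlier results of these data known. Members are described by counts and medians, with no test on the class. CPM per library is given for members that changed 2-fold or more and for the member of each subgroup with the smallest adjusted p, and further members and up to 4 genes per list are named, with exceptions marked. RefSeq GRCr8 tables gave names, chromosomes and start-site sequences only. Floors (3 counts) cover counting error only. Within-group chi-square per degree of freedom was 3.24 to 5.74 (180 to 217 across groups), more than counting error alone gives. Libraries were therefore not pooled, and each counted as 1 replicate. This spread does not tell whether they are separate cultures. On simulated counts of this comparison (13179 genes), the fit recovered 40.8% of 49 genes set to a 1.25-fold change, 71.4% of 49 at 1.5-fold, 87.5% of 48 at 2-fold and 98% of 50 at 4-fold. Only 200 genes were set to change there, whereas 73.9% of genes were called in the real data. The adjusted threshold was therefore stricter in the simulation, and these rates do not carry over to the real comparison. Alternatives were DESeq2 1.42.0, limma-voom (limma 3.58.1), RLE size factors, upper-quartile scaling, total counts alone, other filters, a replicate block and leaving out each library.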

Additional observations from a re-analysis of the deposited data

How the results depend on the processing

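Of 588 alternative values of single members, 531 kept their direction and side of the threshold, and of 196 alternative counts 186 stayed within 1.5 times the reported one. The other 10 counts all came from scaling: under upper-quartile scaling and, with the same numbers, under total counts alone, 18 members were higher in place of 28, with 6 Kdm genes higher in place of 12, 1 Kmt gene in place of 3 and 1 Hdac gene in place of 2, and 2 Kat genes were lower in place of 1. Log2 fold changes that turned sign were, under upper-quartile scaling, Hdac1l −0.07, Kdm3b −0.06 and Kmt2e −0.02, and under total counts alone Hdac1l −0.12, Kdm3b −0.11, Kdm4b −0.01, Kmt2a −0.05, Kmt2d −0.04 and Kmt2e −0.07. Without 1 library, Hdac1l ranged from −0.15 to 0.26, turning without CSE replicate 1 (−0.03) or control replicate 1, and Kat2a from −0.11 to 0.03, turning without CSE replicate 2. Leaving out each library in turn gave 24 to 27 higher members and 9 lower, with 9 to 11 Kdm, 2 to 4 Kmt, 6 Setd, 5 Kat and 2 Hdac genes higher. Equal replicate numbers did not pair the libraries (correlation of deviations −0.027 to 0.0197), and a replicate block gave 27 higher and 9 lower members, with the call of Kdm1b lost (edgeR adjusted p = 0.059). The lowest-count members, Hdac11, Hdac1l, Setd6 and Hdac9, have the widest errors.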
